A study of Homo sapiens with 6 samples.

Results

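Within OPA1-treated THP-1 cells, the peaks of TET2 were set against those of EGR1. Members were all peaks on chromosomes 1 to 22 and X in the 2 peak lists of that treatment, 1683 for TET2 and 506 for EGR1. They made up 2189 of the 3606 peaks deposited for the whole series. THP-1 is an established line of human acute myeloid leukaemia cells with monocytic features, and the cells had been kept for 48 hours in OPA1, the submitters' name for an added agent, about which the labels say no more. Chromatin was precipitated with an antibody to TET2 or to EGR1, 1 library each, and both lists were called against 1 shared input library (chromatin taken without an antibody). Peaks from the cells kept in DMSO, the solvent, were used to ask whether a site recurred and with how many tags. With 1 library per antibody there was no replicate, so no test was made. Intervals below cover counting error only.

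EGR1 is a zinc-finger transcription factor that is induced within minutes of many stimuli and binds a GC-rich motif. TET2 is an enzyme that oxidises 5-methylcytosine in DNA, a step toward demethylation, and is often mutated in myeloid leukaemia. It lacks the CpG-binding CXXC domain that TET1 and TET3 carry, and is held to depend on partner proteins for its place on chromatin. The comparison bears on whether peaks of the enzyme and of a sequence-specific factor lay at the same genomic sites under the same treatment.

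Depth was close to equal, with 19779007 filtered tags for TET2, 19835572 for EGR1 and 20038155 in the shared input, so raw tags per peak were not scaled for depth. Tags in peaks were 0.120% of the TET2 library and 0.0263% of the EGR1 library. How well each antibody pulled down its protein is not known, so a tag difference between them does not measure relative binding. A peak's tags are its deposited count, its fold is the deposited enrichment over the local background, and its score is 10 times the negative log10 of the peak caller's p-value. The false discovery rate of a peak was at most 5% for 1352 of the 1683 TET2 peaks and for 4 of the 506 EGR1 peaks. Peaks with at least 15 tags were 533 of the TET2 list (31.7%) and 32 of the EGR1 list (6.32%). The EGR1 list was thus made up mostly of peaks near the caller's limit, and a TET2 peak without an EGR1 partner is not shown to lack EGR1.

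TET2 and EGR1 peaks shared 24 sites. These were 1.43% of the TET2 list (Wilson 95% interval 0.960 to 2.11%) and 4.74% of the EGR1 list (3.21 to 6.96%), at an overlap of 1 bp or more. Both antibodies gave their highest score at the promoter of PGK1, which encodes a glycolytic kinase, and the remaining sites ranged from SIGLEC9, which encodes an inhibitory sialic acid-binding receptor on myeloid cells, to sites far from any protein-coding gene. Of the 24 TET2 peaks, 13 were centred inside a protein-coding gene, 3 within 5000 bp of one and 8 farther away. Both peaks lay within 1000 bp of an end of a protein-coding gene at 4 sites (PGK1, NIBAN2, DAZAP2 and IRF5). That is 16.7% (6.68 to 35.9%) of the shared sites, against 4.34% (3.46 to 5.42%) of all TET2 peaks and 4.35% (2.89 to 6.50%) of all EGR1 peaks.

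The promoter windows of PGK1 and NIBAN2 were the only ones of the RefSeq promoter table (GRCh38.p14, 250 bases before to 50 after a gene start) that held peaks of both factors. They are shown with 2 promoters each, the highest by score among protein-coding genes, that held a peak of TET2 alone (CCDC15 and CD1A) or of EGR1 alone (EEF1A1 and PSMD3). Sequences run 5′ to 3′ on the strand of the gene, and capitals mark CG dinucleotides, the substrate context of TET enzymes. PGK1 lies at chrX:78103998-78104297 (plus strand), NIBAN2 at chr9:127578982-127579281 (minus), CCDC15 at chr11:124953952-124954251 (plus), CD1A at chr1:158248086-158248385 (plus), EEF1A1 at chr6:73520983-73521282 (minus) and PSMD3 at chr17:39980557-39980856 (plus).
PGK1: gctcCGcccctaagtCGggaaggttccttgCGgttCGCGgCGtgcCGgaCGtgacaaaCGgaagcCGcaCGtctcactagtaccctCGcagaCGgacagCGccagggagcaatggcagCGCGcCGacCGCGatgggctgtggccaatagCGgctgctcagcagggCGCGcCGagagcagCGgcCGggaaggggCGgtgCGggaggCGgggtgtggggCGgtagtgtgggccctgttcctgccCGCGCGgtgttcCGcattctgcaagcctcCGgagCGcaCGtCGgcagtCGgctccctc
NIBAN2: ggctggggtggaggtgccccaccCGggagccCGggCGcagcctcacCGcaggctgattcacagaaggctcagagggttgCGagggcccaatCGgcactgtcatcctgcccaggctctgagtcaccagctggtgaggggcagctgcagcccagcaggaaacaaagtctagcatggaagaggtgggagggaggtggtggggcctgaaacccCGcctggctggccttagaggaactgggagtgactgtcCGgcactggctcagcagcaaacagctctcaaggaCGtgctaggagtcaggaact
CCDC15: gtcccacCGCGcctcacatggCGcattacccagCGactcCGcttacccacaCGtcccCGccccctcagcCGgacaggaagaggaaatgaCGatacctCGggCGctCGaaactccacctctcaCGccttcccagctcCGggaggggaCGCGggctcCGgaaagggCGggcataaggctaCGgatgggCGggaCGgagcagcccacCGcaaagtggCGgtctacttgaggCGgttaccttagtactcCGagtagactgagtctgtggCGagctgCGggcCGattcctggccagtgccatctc
CD1A: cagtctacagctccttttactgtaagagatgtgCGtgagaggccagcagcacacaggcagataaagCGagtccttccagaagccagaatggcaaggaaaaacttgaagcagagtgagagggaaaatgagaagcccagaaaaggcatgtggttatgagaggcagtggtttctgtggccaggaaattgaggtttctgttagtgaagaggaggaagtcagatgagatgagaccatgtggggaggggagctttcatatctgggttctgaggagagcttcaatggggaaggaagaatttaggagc
EEF1A1: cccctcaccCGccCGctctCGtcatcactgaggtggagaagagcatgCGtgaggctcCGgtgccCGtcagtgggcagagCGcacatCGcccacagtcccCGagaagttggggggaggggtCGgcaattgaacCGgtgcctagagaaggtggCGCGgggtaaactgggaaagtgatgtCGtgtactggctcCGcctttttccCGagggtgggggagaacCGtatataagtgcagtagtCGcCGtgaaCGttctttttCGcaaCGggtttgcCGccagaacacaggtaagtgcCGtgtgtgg
PSMD3: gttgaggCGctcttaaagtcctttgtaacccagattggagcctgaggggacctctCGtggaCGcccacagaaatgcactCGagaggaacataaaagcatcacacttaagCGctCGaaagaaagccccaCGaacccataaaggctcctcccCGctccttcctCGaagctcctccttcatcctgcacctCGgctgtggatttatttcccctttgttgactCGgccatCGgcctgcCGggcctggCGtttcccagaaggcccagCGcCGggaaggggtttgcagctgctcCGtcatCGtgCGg

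The PGK1 window held 38 CG dinucleotides and the NIBAN2 window 9. Among the windows with 1 factor, CCDC15 held 28, EEF1A1 24, PSMD3 19 and CD1A 2. At PGK1 the summits of the 2 antibodies lay 2 bp apart, 87 bp (TET2) and 85 bp (EGR1) before the gene start. The EGR1 peak held 98 tags (exact Poisson 95% interval 79.6 to 119) and the TET2 peak 73 (57.2 to 91.8). PGK1 was 1 of 2 shared sites where EGR1 had the larger tag count. At NIBAN2, which encodes a membrane-associated protein of the Niban family, TET2 had 17 tags (9.90 to 27.2) and EGR1 had 8 (3.45 to 15.8). The NIBAN2 summits were 187 bp apart, the widest spacing of the 24 sites, with the EGR1 summit nearer to the gene start (38 bp before it) and the TET2 summit 225 bp before it.

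In SIGLEC9 (chromosome 19) the pair shared 289 bp, and TET2 had 37 tags against 13 for EGR1. ST3GAL1 (chromosome 8), a sialyltransferase gene, held 36 TET2 and 14 EGR1 tags with summits 9 bp apart. In SLC38A1 (chromosome 12), a gene for a neutral amino acid transporter, TET2 had 41 tags and EGR1 16, and the summits were 33 bp apart. EGFLAM (chromosome 5), the gene of an extracellular matrix protein, had nearer values, 30 tags for TET2 and 22 for EGR1.

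ACOXL (chromosome 2), a gene related to the acyl-CoA oxidases, had the highest ratio of the shared sites, 34 TET2 tags to 8 EGR1 tags, or 4.25. TK2 (chromosome 16), the gene of mitochondrial thymidine kinase, had 11 and 8 tags at chr16:66524834-66525085. A site 11742 bp from ELOVL6 (chromosome 4), a fatty acid elongase gene, had 15 and 11 tags with the summits at the same base.

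BCAR3 (chromosome 1), which encodes an adaptor protein, had a shared site with 23 TET2 and 11 EGR1 tags, and ARHGEF3 (chromosome 3) with 18 and 13. IRF5, an interferon regulatory factor of myeloid cells, held 10 and 9 tags at chr7:128949084-128949288, 852 bp from the gene's upper end. FOXN3 (chromosome 14), a forkhead factor gene, held 10 and 8. A pair also lay 184048 bp from ZEB2, a zinc-finger repressor gene, where the TET2 peak had 9 tags and the EGR1 peak 14. At IRF5, FOXN3 and the ZEB2 site the counting intervals of both factors overlapped.

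DAZAP2 (chromosome 12), at 277 bp from the gene's upper end, had 24 TET2 and 8 EGR1 tags, and the same site lay in the overlapping gene SMAGP. MB, the myoglobin gene (chromosome 22), had 9 and 8 tags with summits 99 bp apart. Beyond a gene's body lay pairs 8643 bp from WRN, a RecQ helicase gene (24 and 12 tags), and 4007 bp from ZDHHC11B, a palmitoyltransferase gene (19 and 9 tags). At RNU6-1, a U6 small nuclear RNA gene on chromosome 15, the pair had 26 and 17 tags and shared 314 bp. On chromosome 1, the BMP8A and BMP8B sites had many tags at low folds: 56 TET2 tags (fold 9.80) and 38 EGR1 tags (5.65) in BMP8A, and 146 (10.0) and 58 (5.94) at 11539 bp from BMP8B. The remaining 3 sites were over 100 kb from a protein-coding gene, on chromosomes 8, 9 and 15, with 8 to 19 TET2 and 8 to 12 EGR1 tags.

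**Figure D1:**
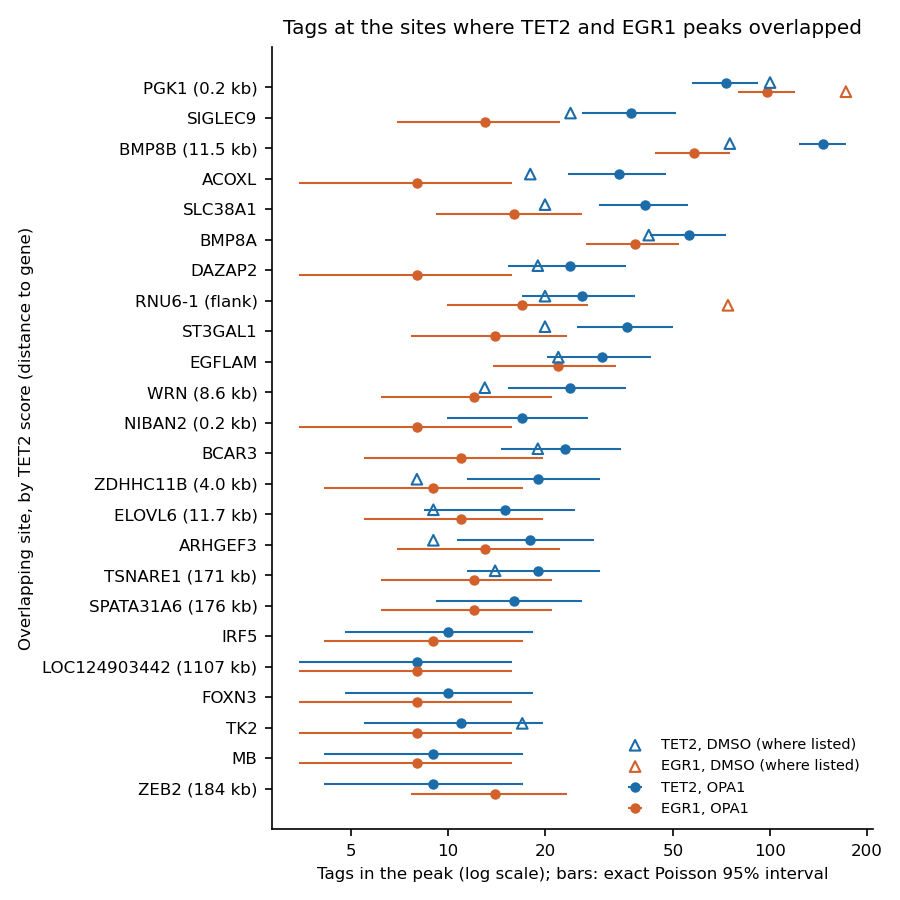
Tags in the TET2 (blue) and EGR1 (orange) peaks at each of the 24 shared sites on a log axis, ordered by TET2 score, with exact Poisson 95% intervals; open triangles are the tags of the DMSO peak where that list had one. TET2 lies to the right of EGR1 at 21 sites, and 17 sites have a DMSO TET2 triangle but 2 a DMSO EGR1 triangle.

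TET2 had more tags than EGR1 at 21 of the 24 shared sites, the same number at 1 and fewer at 2 (PGK1 and the ZEB2 site). The counting intervals were apart at 5 sites, SIGLEC9, BMP8B, ACOXL, SLC38A1 and ST3GAL1, all with TET2 higher, and overlapped at the other 19. The median ratio of TET2 to EGR1 tags was 1.5 (0.643 to 4.25). TET2 peaks were also longer at 22 sites, with a median of 358 bp against 216 bp. Per 100 bp of peak the median ratio was 1.20 (0.692 to 2.27), and EGR1 was denser at 4 sites (PGK1, IRF5, FOXN3 and the distant chromosome 15 site). The median ratio was thus smaller per 100 bp than per peak. The peak caller's fragment length was 76 bp for TET2 and 70 bp for EGR1. What the tag difference goes with was not tested. Over the whole lists the median was also higher for TET2, 12 tags against 9 for EGR1.

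The shared TET2 peaks had a median of 21 tags and a fold of 12.7, against 12 tags and 11.1 for the TET2 peaks without an EGR1 partner. The shared EGR1 peaks had 12 tags and a fold of 9.27, against 9 tags and 11.6 for the others. The TET2 false discovery rate was at most 5% at 23 shared sites. For EGR1 it was so at PGK1 alone, and was 16.1 to 23.7% at the other 23. Apart from PGK1, the EGR1 side of the shared sites thus carried a high false discovery rate.

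Shared sites were concentrated at the top of the TET2 list. Of the 25 TET2 peaks with the highest score, 6 overlapped an EGR1 peak (24.0%, 11.5 to 43.4%). Of the next 75 it was 4 (5.33%), of the next 400 it was 8 (2.00%) and of the last 1183 it was 6 (0.507%, 0.233 to 1.10%). By tags, 8 of the 55 TET2 peaks with at least 30 tags were shared (14.5%, 7.56 to 26.2%). In the EGR1 list, 3 of the 7 peaks with at least 30 tags were shared (42.9%, 15.8 to 75%), against 9 of the 317 with 8 or 9 tags (2.84%). The 3 were PGK1, BMP8A and BMP8B. At BMP8A and BMP8B the EGR1 folds were low (5.65 and 5.94) and the false discovery rates 16.13 and 16.67%. Both BMP8 sites were also among the shared TET2 peaks with at least 30 tags. By score it was 4 of the 25 highest (16.0%, 6.40 to 34.7%), 4 of the next 75 (5.33%) and 16 of the next 400 (4%, 2.48 to 6.40%).

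Within the shared sites most summits lay close together, a closeness that the choice of overlapping peaks in part fixes. The summits were a median of 27 bp apart (0 to 187), 19 within 50 bp and 22 within 100 bp. At 4 sites the summits fell on the same base. They were the ELOVL6 site and the distant sites on chromosomes 8, 9 and 15. Whether these lie in repeated sequence was not examined, so precise placement cannot be read from them. The EGR1 peak lay wholly inside the TET2 peak at 15 sites, the reverse held at 1 (the ZEB2 site), and 8 pairs overlapped in part. The EGR1 summit was at the higher coordinate in 11 pairs and at the lower in 9, so the offset had no fixed side. With peak midpoints in place of summits the median distance was 42 bp, and the largest was 392 bp, at BMP8B.

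**Figure D2:**
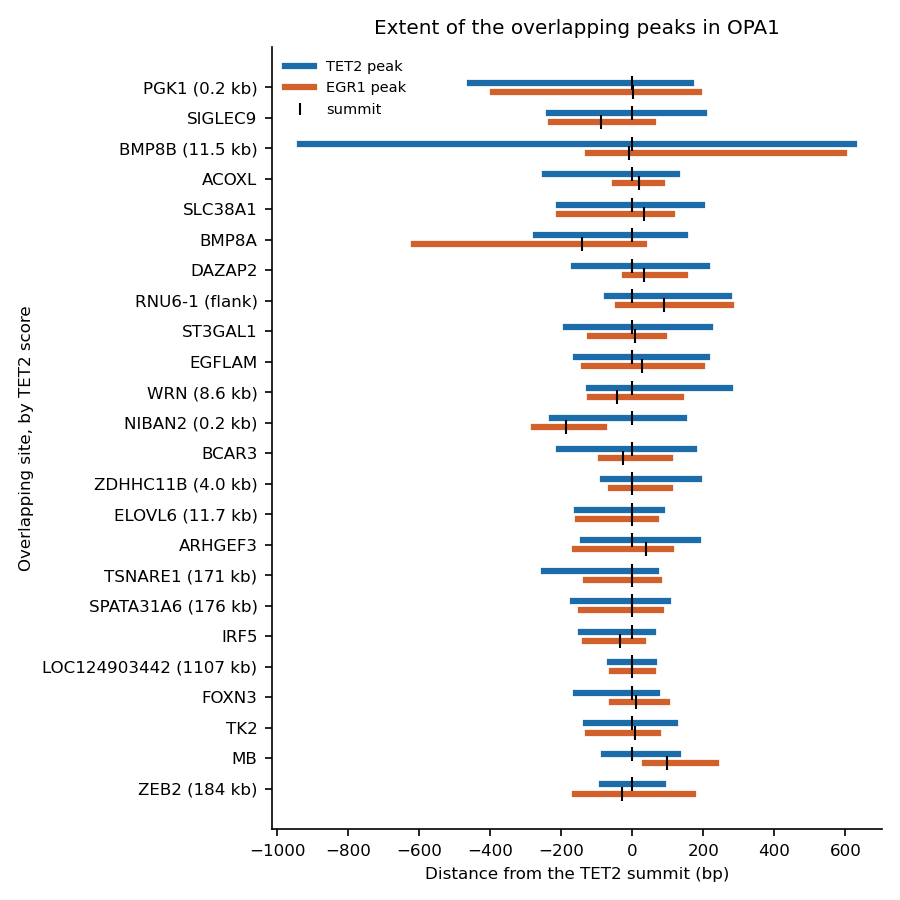
Extent of the TET2 (blue) and EGR1 (orange) peak at each shared site, in bp from the TET2 summit, with black ticks for summits. The EGR1 bar lies inside the TET2 bar at 15 sites, and the ticks are at most 187 bp apart.

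Away from these sites, most peaks of 1 factor had no peak of the other nearby. No further pair of peaks came within 1 kb, since the closest pair without overlap had a gap of 1032 bp. Within 10 kb were 33 TET2 peaks (1.96%, 1.4 to 2.74%) and 33 EGR1 peaks (6.52%, 4.68 to 9.02%) with a peak of the other factor. Within 100 kb it was 93 TET2 peaks (5.53%, 4.53 to 6.72%) and 82 EGR1 peaks (16.2%, 13.3 to 19.7%). The median distance to the nearest peak of the other factor was 1775370 bp for TET2 and 520224 bp for EGR1, an asymmetry that goes with the lengths of the lists. The shares and distances expected from the lengths of the lists alone were not computed. Neither avoidance nor attraction of the factors can thus be read from these values.

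**Figure D3:**
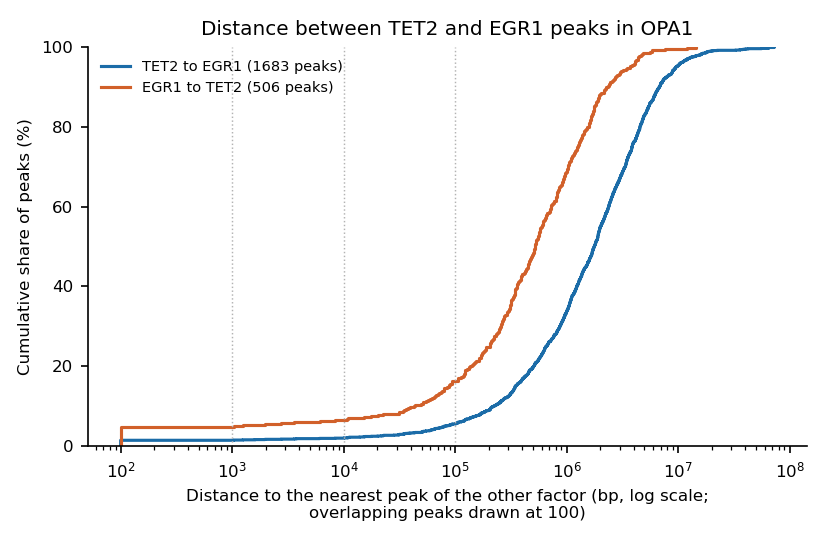
Cumulative share of TET2 peaks (blue, 1683) and EGR1 peaks (orange, 506) by distance to the nearest peak of the other factor, on a log axis with overlapping peaks drawn at 100 bp and dotted lines at 1, 10 and 100 kb. Both curves are flat from the overlapping peaks to beyond 1 kb and rise mainly past 100 kb.

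The 9 pairs with a gap between 1032 and 8370 bp were made of weak peaks, 9 to 18 TET2 tags and 8 to 11 EGR1 tags. One lay inside BMPR1B, a BMP receptor gene (gap 1601 bp). Another fell at the neighbouring genes HAUS6, a component of the augmin complex of the spindle, and PLIN2, which encodes a lipid droplet protein (gap 3775 bp). At ADIPOR1, an adiponectin receptor gene, the EGR1 peak was in the gene and the TET2 peak 6032 bp outside it. The other pairs were 10517 to 4758349 bp from their nearest protein-coding genes at the TET2 peak (PARD6G, ST8SIA4, KIF20B, TOMM20, CITED2 and OR11H1). None of these 9 TET2 peaks was found in the DMSO TET2 list. So few peaks cannot be set apart from the 10.1% of all OPA1 TET2 peaks that recurred. A pair just past the 10 kb limit, picked out after its values were seen, lay beside EGR3, an immediate early gene of the EGR1 family. There an EGR1 peak of 17 tags crossed the gene's upper end, and 11061 bp away a TET2 peak of 56 tags (42.3 to 72.7) had the fifth-highest score of the TET2 list (rank 5). That TET2 peak lay at chr8:22704858-22705309, 8168 bp from PEBP4, and recurred in DMSO with 32 tags.

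The DMSO lists did not enter the choice of the shared sites and were called against a different input. Of the OPA1 TET2 peaks as a whole, 10.1% overlapped a DMSO TET2 peak. Of the 24 shared sites, 17 did (70.8%, 50.8 to 85.1%), against 153 of 1659 other TET2 peaks (9.22%, 7.92 to 10.7%). The 17 sites held 8 (ZDHHC11B) to 100 (PGK1) TET2 tags in DMSO, among them 24 in SIGLEC9, 22 in EGFLAM, 20 each in SLC38A1 and ST3GAL1 and 19 in BCAR3. The 7 sites without a DMSO TET2 peak were NIBAN2, IRF5, FOXN3, MB and those nearest to ZEB2, SPATA31A6 and LOC124903442. Of these, 6 were below 17 TET2 tags in OPA1.

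Peak strength moved with this result. Among TET2 peaks with at least 15 tags, a cutoff added once the values were known, 16 of 18 shared (88.9%, 67.2 to 96.9%) and 113 of 515 other peaks (21.9%, 18.6 to 25.7%) recurred. With at least 30 tags, a cutoff also added, it was 8 of 8 (67.6 to 100%) and 24 of 47 (51.1%, 37.2 to 64.7%). There the intervals barely stayed apart. PGK1, BMP8A and BMP8B were among these 8, and the share without them was not computed at this cutoff. Without the PGK1, RNU6-1, BMP8A and BMP8B sites, and with no tag cutoff, 13 of 20 shared sites recurred (65.0%).

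Few EGR1 peaks recurred. The DMSO EGR1 list was also made mostly of weak peaks, with a median of 9 tags and a median false discovery rate of 19.1%. Of all OPA1 EGR1 peaks, 0.395% overlapped a DMSO EGR1 peak, and these were PGK1 and RNU6-1, 2 of the 24 shared sites (8.33%, 2.32 to 25.8%). The other EGR1 peaks had none, 0 of 482, which allows up to 0.791% by the Wilson interval. Of the OPA1 EGR1 peaks, 3.75% overlapped a DMSO TET2 peak, in a list of 882 peaks against 508 for DMSO EGR1. These were 17 at the shared sites and 2 elsewhere (0.415% of the other 482, 0.114 to 1.5%).

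**Figure D4:**
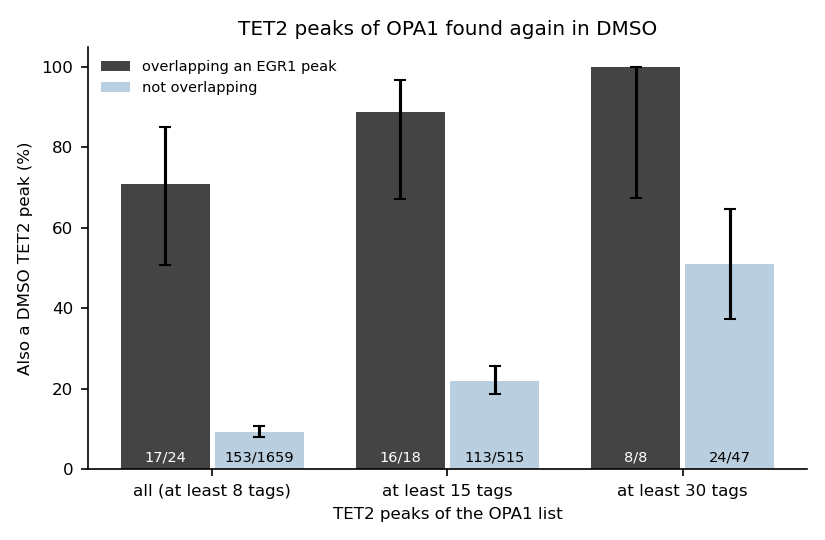
Share of OPA1 TET2 peaks that overlapped a DMSO TET2 peak, for peaks that overlapped an EGR1 peak in OPA1 (dark) and all others (light), with Wilson 95% intervals and counts at the foot of each bar. The dark bars are 70.8, 88.9 and 100% and the light bars 9.22, 21.9 and 51.1% as the least number of tags goes from 8 to 15 to 30.

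By gene, a TET2 peak was centred in or within 5000 bp of 931 of 19970 protein-coding genes (4.66%) and an EGR1 peak of 260 (1.30%). Both factors marked 50 genes (0.250%), TET2 alone 881 and EGR1 alone 210. The 50 genes were 5.37% (4.10 to 7.01%) of the TET2 genes and 19.2% (14.9 to 24.5%) of the EGR1 genes, the latter to be read against the 4.66% of all genes with a TET2 peak. Of the 50, 17 held a shared site (DAZAP2 and SMAGP the same one). The other 33 had separate peaks of the 2 factors, and counting those alone 13.6% (9.84 to 18.5%) of 243 EGR1 genes had a TET2 peak.

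The genes with separate peaks were long. Their median length was 294 kb, against 24.2 kb for all protein-coding genes, 99.6 kb for TET2 genes and 127 kb for EGR1 genes, and 22 of the 33 were over 200 kb. Of genes over 200 kb, 19.6% had a TET2 peak and 28.7% of those with an EGR1 peak did. In genes of 50 to 200 kb the values were 7.38 and 14.3%, and in genes of 10 to 50 kb, where 8 genes had both and 7 of them through a shared site, they were 3.16 and 18.2%. The part of length in the gene count was not tested further.

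The closest separate peaks within a gene, after BMPR1B and HAUS6, were in ATG13, an autophagy gene (11064 bp apart, 10 TET2 and 13 EGR1 tags), RASSF3 (14160 bp), CDKL2 (20447 bp) and ARFGEF2 (23057 bp). UBASH3B, which encodes a phosphatase that curbs receptor signalling, had the strongest TET2 peak of the 33 genes, 34 tags, 31308 bp from an EGR1 peak of 13 tags. Next came TMEM132B, SSH1, IL19, TLK1, DPF3, PTPN12, DMRT1, PTPRD, EYS and PDE7B at 34560 to 94951 bp, and AP3B1, RIMS1 and EXT2 at 106480 to 127449 bp. The rest reached 1061717 bp, in DPP10. These distances had a median of 95 kb, and 2 of the 33 closest TET2 peaks (UBASH3B and RPTOR) recurred in DMSO, beside 10.1% of all TET2 peaks.

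Most TET2 peaks had no EGR1 peak nearby, but the share expected from the short EGR1 list alone was not computed. Of the TET2 peaks, 1590 (94.5%, 93.3 to 95.5%) had no EGR1 peak within 100 kb. Those with the highest score at a gene were in DOCK9 (47 tags, 34.5 to 62.5, fold 21.3, chr13:99046209-99046628), beside LMO2, a blood stem cell regulator gene (37 tags), in ADARB1, an RNA-editing gene (35), in CFDP1 (31), in CAPG, an actin-capping gene of macrophages (32), in OLFML2A (29, with the highest fold of the list at 39.8), in NUDT7 (34) and in CUX1 (22). Away from genes they lay 11008 bp from ARHGEF18 (31 tags) and 17768 bp from BBS12 (25). Of these 10 peaks 9 recurred in the DMSO TET2 list, NUDT7 being the exception. They were picked by score, and strong peaks recurred more often in general. The share was 10.1% of all TET2 peaks. Among those without an EGR1 overlap it was 21.9% with at least 15 tags and 51.1% with at least 30.

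Of the EGR1 peaks, 424 (83.8%, 80.3 to 86.7%) had no TET2 peak within 100 kb, again with no expected share computed. The highest scores at genes belonged to EEF1A1, the gene of a translation elongation factor, with 53 tags (39.7 to 69.3, fold 8.71) at chr6:73520463-73521267 and 25 tags in a second peak beside it. VPS4B, an ESCRT gene (13 tags), PIKFYVE, a lipid kinase gene (14), UBE3D (15), ADGRV1 (12), SERINC5 (11) and PSMD3, a proteasome subunit gene (13), followed. Elsewhere the highest lay 448955 bp from CWH43 (24 tags) and 63844 bp from MRPL57 (17 tags). With PGK1, the first EEF1A1 peak and the peaks nearest to CWH43 and MRPL57 were the 4 EGR1 peaks at a false discovery rate of at most 5%. Apart from PGK1, none of the EGR1 peaks named in this paragraph recurred in the DMSO EGR1 list. That is not particular to them, since 0.395% of all OPA1 EGR1 peaks did.

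EGR1 peaks lay over 100 kb from any protein-coding gene more often, 25.9% (22.3 to 29.9%) against 17.8% (16.0 to 19.7%) for TET2, with counting intervals that did not meet. The lists differed in quality, with a median false discovery rate of 22.1% for EGR1 and 3.17% for TET2 peaks. Each came from 1 library, and what the difference in position goes with was not tested. Inside protein-coding genes were 48.9% (46.5 to 51.3%) of TET2 and 43.9% (39.6 to 48.2%) of EGR1 peaks. Within 1000 bp of an end of any gene were 10.6% (9.25 to 12.2%) and 8.30% (6.20 to 11.0%).

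By median, the few promoter windows with an EGR1 peak held more CG than those with a TET2 peak. On the chromosomes in the promoter table as used here (all but chromosome 8), 50 of 1546 TET2 peaks (3.23%, 2.46 to 4.24%) and 11 of 478 EGR1 peaks (2.30%, 1.29 to 4.07%) met a promoter window, in 54 and 15 windows, since neighbouring genes can share a peak. The windows with an EGR1 peak held a median of 26 CG dinucleotides (quartiles 21 and 27), those with a TET2 peak 9 (3 and 21), and all 34961 windows 14 (4 and 28). At least 20 CG dinucleotides were in 13 of 15 EGR1 windows (86.7%), 16 of 54 TET2 windows (29.6%) and 41.2% of all windows. For protein-coding genes alone the medians were 25 for EGR1, 16 for TET2 and 21 for all. Except at PGK1 and EEF1A1, the EGR1 peaks in these windows had a false discovery rate of 18.75 to 23.81%. The difference in CG was not tested.

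Of the 15 genes with an EGR1 peak in a promoter window, 3 were long non-coding RNA genes. Besides PGK1, EEF1A1 and NIBAN2, the others included OR1F1, an olfactory receptor gene (8 tags, 20 CG), RPS7, a ribosomal protein gene (9 tags, 26 CG), POLG, the mitochondrial DNA polymerase gene (13 tags, 27 CG), PSMD3, and CHMP4B, an ESCRT gene (10 tags, 33 CG). Named after their values were seen, TET2 promoters low in CG included those of TREM1, an inflammatory receptor gene of myeloid cells (14 tags, 2 CG), CD36, a scavenger receptor gene (16 tags, 1 CG), CD1A, a lipid antigen-presenting gene (26 tags, 2 CG), and MEF2C (14 tags, 2 CG). Others were rich in CG, such as PMAIP1, a cell death gene (10 tags, 42 CG), and PBX4 (9 tags, 35 CG). The core EGR1 motif GCGTGGGCG, searched on both strands, was in 0 of the 15 EGR1 windows, 0 of the 54 TET2 windows and 0.792% of all windows. Its variant GCGGGGGCG was in 0 of the 15, in 1 of the 54 (WBP2) and in 5.09% of all. These counts concern the letters in 300-base windows, not binding.

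**Figure D5:**
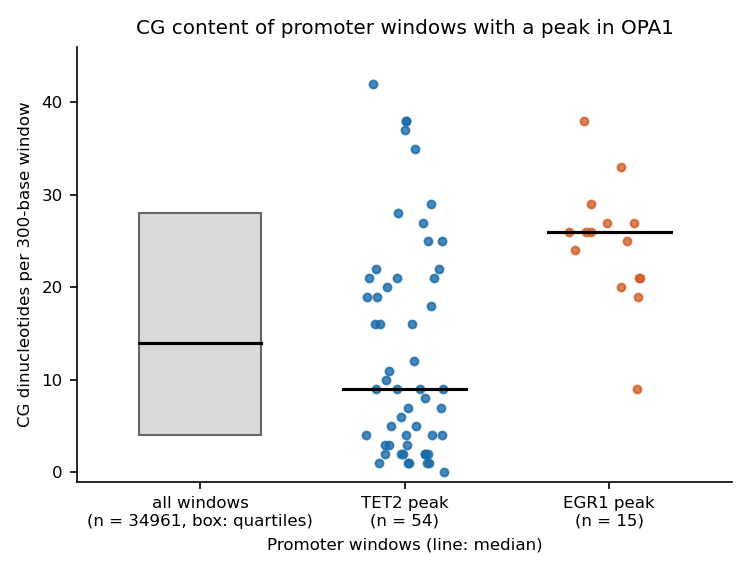
CG dinucleotides per 300-base promoter window for all windows (box of quartiles), windows with a TET2 peak (blue points, 54) and windows with an EGR1 peak (orange points, 15), with lines at the medians of 14, 9 and 26. The orange points lie mostly at 19 or above, while the blue points spread from 0 to 42.

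Across 11 gene lists, 27 of 239 genes (11.3%) had a TET2 peak and 5 (2.09%) an EGR1 peak, against 4.66% and 1.30% of all protein-coding genes. The lists were chosen with earlier results of these data known, so these shares are only a description. The EGR1 share rests on 5 genes and is near that of all genes. Genes with a peak were longer than others, and the lengths of the list genes were not compared. Of 28 genes that write, read or remove DNA methylation, 5 had TET2 peaks (TET1, TET3, MBD4, HMCES and CXXC5). None had an EGR1 peak (upper limit 12.1%). The EGR1 peak closest to any of these 5 was 2394 kb from that of TET1. Of 30 textbook targets of EGR1, 4 had a TET2 peak (among them FLT1, HBEGF and PDGFB, with 10, 17 and 13 tags) and none an EGR1 peak (0 of 30, upper limit 11.4%). The nearest EGR1 peaks to the TET2 peaks of these named genes were 846 to 3468 kb away.

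Among immediate early genes, EGR3 of 25 had an EGR1 peak and none a TET2 peak (upper limit 13.3%). Of 23 genes of G protein and cAMP signalling, TET2 marked 4, among them ADCY7, MAP2K1 (2 peaks, 14 and 19 tags) and PRKAR1A, and EGR1 marked PDE4D. Among 26 leukaemia and stem cell genes, TET2 marked CCND3, CD34, LMO2, RUNX1T1 and TAL1, and EGR1 marked MECOM, with 2 peaks of 8 tags. The monocyte and granulocyte list had TET2 at ITGB2, S100A8 and SIGLEC9 of 21 genes and EGR1 at SIGLEC9, and the glycolysis list of 16 had TET2 at HK2 and PGK1 and EGR1 at PGK1. SIGLEC9 and PGK1 were the 2 list genes with both factors. Of 18 myeloid transcription factors, MEF2C had 3 TET2 peaks (9, 14 and 13 tags), and of 18 cell death genes TET2 marked PMAIP1 and TNFRSF10B. None of the 28 genes of other lineages had a peak of either factor (upper limit 12.1% for each). That does not set them apart from the 4.66 and 1.30% of all protein-coding genes. Peak lists cannot show the cell type, so the label THP-1 was not checked beyond these counts.

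Of the opioid receptor and peptide genes, OPRM1, the mu opioid receptor gene, had a TET2 peak of 20 tags (12.2 to 30.9) in its body at chr6:154169425-154169805. The nearest EGR1 peak was 366 kb from that peak and 207 kb from the gene. OPRD1, OPRK1 and OPRL1 had no peak of either factor within 200 kb. The genes of the 2 precipitated proteins were also bare, with the nearest TET2 peak 889 kb from EGR1 and 285 kb from TET2, and the nearest EGR1 peaks 5342 and 1421 kb away.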

How the data were processed

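Peaks were called by the authors with MACS 1.4.2 on each library alone against the input of its treatment, per the file headers, at a p-value cutoff of 1e-05, with a band width of 200 bp, 50 bp tags and 1 tag kept per position. Coordinates are on GRCh38, and Bowtie2 2.2.6 and HOMER were among the tools, per the submitters' processing notes, which give no role for HOMER. The deposited tags are raw counts per peak, the deposited fold is a ratio to local background, the deposited score is 10 times the negative log10 of the p-value, and the deposited false discovery rate is in percent. Folds, scores and rates are the authors' values and serve to describe or rank peaks within a list; tags were also set side by side.

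Chromosomes 1 to 22 and X were kept, which left out 4 TET2 and 9 EGR1 peaks. No peak was left out for lying in repeated sequence, also not those far from any gene. Summits are start plus offset, distances run edge to edge, and genes are RefSeq GRCh38.p14, without exons, so exon and intron were not told apart. Promoter sequences are RefSeq's, for 15811 of the protein-coding genes. All 239 list names matched. Python 3.11.15, pandas 2.3.3 and scipy 1.17.1 gave counts, Wilson and exact Poisson 95% intervals; overlap code was tested on simulated peaks. Named were all shared sites, pairs within 10 kb, the 20 closest genes with separate peaks, the 8 highest scores at genes and 2 elsewhere beyond 100 kb of the other factor, and list members with a peak, of which some are not reported here. The members and lists were chosen with earlier results of these data known. Nothing says whether the libraries came from separate cultures.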

Additional observations from a re-analysis of the deposited data

Results flagged for a closer look

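At RNU6-1, 1 of 2 shared sites with a peak in all 4 lists, the TET2 minus EGR1 difference in tags was 9 in OPA1 and -54 in DMSO, so the order of the antibodies turned between the treatments. In OPA1 the counting intervals overlapped (26 tags, 17.0 to 38.1, against 17 tags, 9.90 to 27.2), and the DMSO values were 20 and 74. The change between treatments was not tested, since each value comes from 1 library.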

How the results depend on the processing

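Each result was recomputed under other settings, and 60 of 98 recomputed values stayed near the reported one (counts within 1.5 times). No count of shared sites fell by more than that with a stricter overlap, with summits within 100 bp, with a fold of at least 8, or with a false discovery limit on the TET2 list alone (18 to 23 of 24). A false discovery limit of 5% on both lists left 4 EGR1 peaks, and with them 1 peak overlapping or within 1, 10 or 100 kb, 1 gene marked by both and 1 by EGR1 alone. A score of at least 60 in both lists left 7 overlapping peaks, 7 within 1 or 10 kb, 8 within 100 kb, 7 genes with both factors, 448 with TET2 alone and 42 with EGR1 alone. With the TET2 list shortened to the length of the EGR1 list, 19 peaks of each factor lay within 10 kb, 40 TET2 and 37 EGR1 peaks within 100 kb, 22 genes had both factors and 287 TET2 alone. Genes with both, TET2 alone and EGR1 alone numbered 133, 2003 and 450 within 50000 bp, and 7, 276 and 73 within 5000 bp of a gene end only. With all genes in place of protein-coding ones TET2 alone marked 1409 and EGR1 alone 369. The midpoint distance of 42 bp exceeded the summit distance of 27 bp. The limits of 15 and 30 tags and the leaving out of 4 sites were chosen after seeing the data. At 15 tags or more the recurrence in DMSO rose to 88.9% for shared and 21.9% for other TET2 peaks. The false discovery and score limits and the shortened list keep fewer peaks, the wider window and the set of all genes let more genes be marked, and the limit to gene ends fewer. For the midpoint and the recurrence the cause was not tested. No paired analysis was possible because each group holds 1 library. Depth was close to equal in both libraries, and a median of 9 tags per EGR1 peak and 12 per TET2 peak makes the counting intervals of most peaks wide.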

Other observations

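The 2 lists were spread over the chromosomes in somewhat different proportions. Chromosome 9 held 6.13% (4.35 to 8.56%) of EGR1 peaks and 3.03% (2.31 to 3.96%) of TET2 peaks, and was the single chromosome whose intervals did not meet, of 23 compared. Chromosome 8 held 8.14% (6.93 to 9.54%) of TET2 and 5.53% (3.86 to 7.88%) of EGR1 peaks. On X there were 13 TET2 peaks and 1 EGR1 peak, at PGK1.

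Several genes carried more than 1 peak of the same factor, 78 for TET2 and 13 for EGR1. HIVEP3, a zinc-finger gene, had 4 TET2 peaks, and SLC25A37, the gene of a mitochondrial iron carrier, was among 10 genes with 3, as was MEF2C. No gene had more than 2 EGR1 peaks. Outside the shared sites, OPA1 EGR1 peaks met a DMSO TET2 peak at 2 places, 720228 bp from SLITRK5 (12 tags) and 677763 bp from LOC105375816 (9 tags).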
